A study of Homo sapiens with 6 samples.

Results

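The genes described here are the collagens and the enzymes and chaperone that modify or fold them, 60 of the 28395 gene identifiers in the count table. They were chosen by a rule on names, which uses no measured value but was set with earlier results of these data known: 44 protein-coding genes whose symbol has the form COL, number, A, number, and 16 genes for prolyl 3-hydroxylases (P3H1 to P3H4), prolyl 4-hydroxylase alpha subunits (P4HA1 to P4HA3), lysyl hydroxylases (PLOD1 to PLOD3), lysyl oxidases (LOX and LOXL1 to LOXL4) and the chaperone SERPINH1. All 60 were in the table. The cells were the parental line MDA-MB-468, established from a human breast cancer of the triple-negative kind (without hormone receptors or HER2 amplification), and MDA-MB-468-PR, a derivative made by keeping the line in paclitaxel, a microtubule-stabilising drug, at 3 to 4.5 nM for 2 months. RNA of 3 control libraries of the parental line and 3 resistant libraries of the derivative was sequenced after capture with exome probes, and all 6 were labelled untreated at harvest. The resistant libraries come from a single derivative, and the labels do not say that libraries of a group came from separate cultures, so p-values measure only the spread between these samples. Replicate 1 of each group belonged to a 2020 batch and replicates 2 and 3 to a 2021 batch.

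Collagens are extracellular proteins in which 3 chains wind into a triple helix. Fibrillar collagens (types I, II, III, V, XI, XXIV and XXVII) build fibres or sit in them, type IV forms the sheet-like network of basement membranes on which epithelial cells rest, FACIT collagens attach to the surface of fibrils, type VI forms beaded filaments, and a transmembrane group stays anchored in the cell surface. Before secretion, prolyl 4-hydroxylases stabilise the helix, prolyl 3-hydroxylases and lysyl hydroxylases modify further residues, and SERPINH1 (HSP47) binds the folded helix in the endoplasmic reticulum. Lysyl oxidases then cross-link the secreted chains. In a carcinoma most fibrillar collagen is made by fibroblasts, while epithelial cells make basement membrane chains.

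Sequences upstream of the members on which the results turn are shown first, because type IV genes lie in pairs with a short shared region between them, and both genes of 2 of the 3 pairs rose. COL4A1 and COL4A2 are transcribed away from each other on chromosome 13, with 126 bases between their annotated starts, and COL4A4 and COL4A3 likewise on chromosome 2, with 135 bases between them. The third pair, COL4A6 and COL4A5 on chromosome X, is also head to head, with 379 bases between the starts, and neither gene was called. Its gap is not shown. The lines below are RefSeq sequence of GRCh38.p14, 5′ to 3′. The 2 gaps are on the plus strand (chr13:110307158-110307283 and chr2:227164489-227164623). The other 3 are the 250 bases before the start of COL12A1 (chr6:75206054-75206303), P3H2 (chr3:190122279-190122528) and COL9A2 (chr1:40317287-40317536), each on its gene's minus strand. Capitals mark a GC box (GGGCGG, or CCGCCC where it lies on the other strand), a CCAAT box (CCAAT), or a CTC box (CCCTNCCCC). Overlapping matches run together.
COL4A1 and COL4A2 gap: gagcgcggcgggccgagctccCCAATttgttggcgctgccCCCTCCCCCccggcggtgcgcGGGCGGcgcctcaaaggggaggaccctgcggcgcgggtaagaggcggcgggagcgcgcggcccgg
COL4A4 and COL4A3 gap: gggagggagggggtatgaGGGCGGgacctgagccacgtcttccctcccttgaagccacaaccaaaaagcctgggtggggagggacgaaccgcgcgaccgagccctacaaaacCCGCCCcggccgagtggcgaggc
COL12A1: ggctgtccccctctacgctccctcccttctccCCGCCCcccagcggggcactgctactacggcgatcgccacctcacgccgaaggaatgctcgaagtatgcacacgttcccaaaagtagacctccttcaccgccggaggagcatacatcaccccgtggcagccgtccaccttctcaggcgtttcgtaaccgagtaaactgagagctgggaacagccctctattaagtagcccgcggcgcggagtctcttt
P3H2: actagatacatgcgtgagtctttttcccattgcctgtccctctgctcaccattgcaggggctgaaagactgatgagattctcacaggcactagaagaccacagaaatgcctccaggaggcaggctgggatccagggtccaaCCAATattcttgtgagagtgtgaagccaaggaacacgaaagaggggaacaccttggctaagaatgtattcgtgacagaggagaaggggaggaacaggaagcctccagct
COL9A2: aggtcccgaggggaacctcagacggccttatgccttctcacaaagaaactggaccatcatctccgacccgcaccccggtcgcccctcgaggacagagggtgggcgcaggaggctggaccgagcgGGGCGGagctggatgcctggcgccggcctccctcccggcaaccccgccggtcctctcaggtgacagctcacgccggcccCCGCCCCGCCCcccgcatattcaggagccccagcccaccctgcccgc
The gap between COL4A1 and COL4A2 was 80.2% G or C and held a CCAAT box at base 22, a CTC box at base 41 and a GC box at base 62, counted from its first base. That between COL4A4 and COL4A3 held 2 GC boxes and neither other motif. COL9A2 held 3 GC boxes, COL12A1 held 1, and P3H2 held a CCAAT box without a GC box. A match describes the letters only. In all 27305 promoter windows of the RefSeq table, only the 250 bases before the start were searched, on both strands. Of these windows 42.3% held GGGCGG, 33.0% held CCAAT and 9.98% held CCCTNCCCC.

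The deposited values were read counts per gene, with totals of 41343499, 59171296 and 66475627 for control replicates 1 to 3 and 37889818, 63073979 and 93680129 for resistant replicates 1 to 3. Levels are given as CPM (counts scaled to a library of 1e6) after TMM scaling, and errors are SDs over n = 3 libraries per group unless stated. Fold changes come from edgeR's quasi-likelihood test with a batch term and Benjamini-Hochberg adjustment over the 13950 genes that passed a filter on low counts. Standard errors (SE) were derived from that test, as the absolute log2 fold change divided by the square root of its F statistic. A gene is called where the adjusted p was under 0.05. The filter asks for enough counts in as many libraries as 1 group holds, so a gene can pass it through 1 group alone. COL6A3, ITGA1 and MMP13, described below, had few counts in their lower group. Their entry to the test therefore leaned on the group where they were high. The epithelial markers EPCAM, KRT8, KRT18, KRT5, EGFR and CDH1 were all expressed, with EPCAM at 514 ± 129 CPM in control and 474 ± 156 in resistant libraries. PGR had no count, and ESR1 was at 2.12 ± 2.11 and 1.64 ± 0.68 CPM. ERBB2, the gene of HER2, was expressed, at 117 ± 18.3 CPM in control and 105 ± 11.6 in resistant libraries. Of 7 fibroblast and pericyte markers, LUM, THY1 and POSTN had no count in any library, and the summed list ranged from 4.29 to 6.78 CPM in control and from 3.43 to 5.25 in resistant libraries, most of it FAP. Summed endothelial markers ranged from 2.05 to 3.25 and from 2.21 to 3.74 CPM, and summed leukocyte markers, mostly CD68, from 2.14 to 2.54 and from 2.89 to 4.25. CD68 itself was not called (edgeR adjusted p = 0.186), and its part in the results below was not tested.

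Of the 60 members, 40 passed the filter and 12 were called: COL4A1, COL4A2, COL4A3, COL4A4, COL12A1, COL14A1, COL16A1, COL23A1, COL27A1 and P3H2 rose in the resistant line, and COL9A2 and COL6A3 fell. The 12 calls are 30% of the tested members, against 11.7% of all genes tested. In the higher direction there were 10 member calls against a background of 6.23%, and in the lower direction 2 against 5.48%. The median log2 fold change was 0.36 over the 40 members and -0.00 over all genes tested, and 32 of the 40 lay above 0. The control and resistant libraries did not overlap for 15 of 40 members (37.5%), compared with 20.9% of all genes. Among the 12 called members only COL14A1 had overlapping groups. The other 28 tested members had adjusted p values from 0.0571 to 0.931. In RNA of whole cultures, a change in the share of cells that express a gene and a change per cell cannot be told apart.

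**Figure D1:**
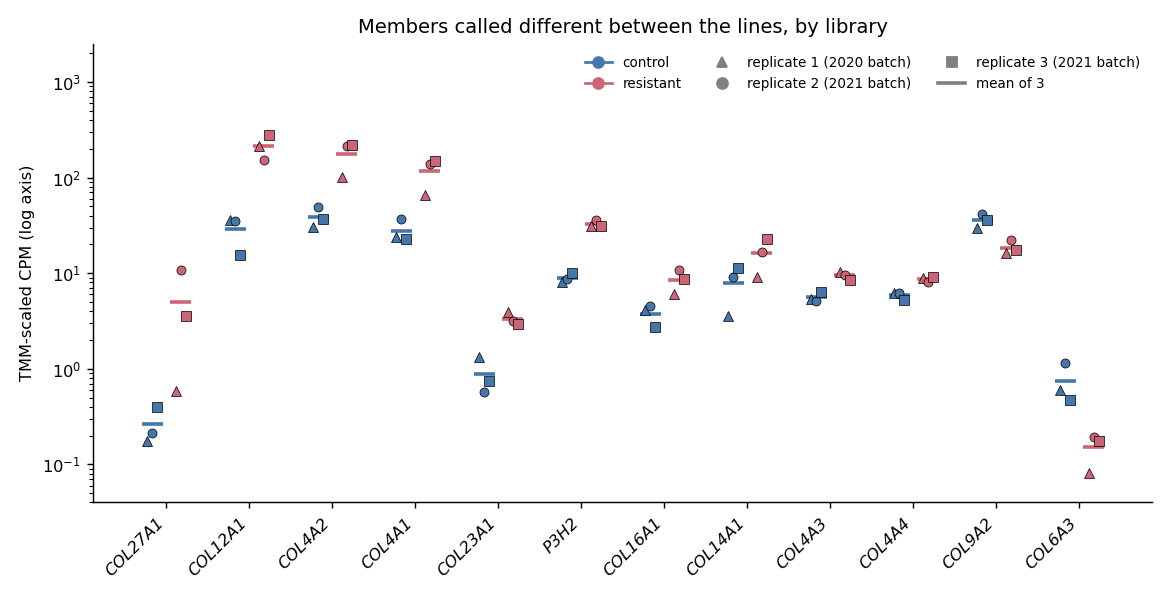
TMM-scaled CPM on a log axis of the 12 called members in each of 6 libraries, by group and replicate, with lines for group means. The groups are apart for 11 of them and overlap for COL14A1, and COL27A1 has the widest spread among resistant libraries, from 0.592 to 10.9 CPM.

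Of the 6 type IV chains, the basement membrane network, 4 rose and 2 were not called. COL4A2 (chr13:110307284-110513209), one chain of the common basement membrane heterotrimer, was at 30.3, 49.1 and 37.2 CPM in control replicates 1 to 3 and at 102, 214 and 220 in resistant replicates 1 to 3. The lowest resistant library, from the 2020 batch, was above every control. The mean went from 38.9 ± 9.49 to 179 ± 66.2 CPM, a 4.41-fold rise (log2 2.14 ± 0.16 SE, edgeR quasi-likelihood adjusted p = 0.000654). COL4A1 (chr13:110148963-110307157), which supplies the other chains of the same trimer, was at 24.1, 37 and 22.6 CPM in control and 66.4, 139 and 148 in resistant libraries. It had the same order of libraries in the resistant group and rose 4.02-fold (log2 2.01 ± 0.24 SE, edgeR adjusted p = 0.00367). Chain ratios, here and below, are ratios of counts per base of the longest annotated transcript. That of COL4A2 to COL4A1 was 1.28, 1.35 and 1.68 in control and 1.57, 1.56 and 1.51 in resistant libraries. The groups overlapped (difference in log2 ratio 0.12, two-sided exact permutation p = 0.4, where 0.1 is the smallest possible). Of the 19 tested genes nearest to COL4A1, up to 10 on each side, 2 were called higher, against 6.23% of all genes tested. The median log2 fold change of the 19 was 0.09.

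COL4A3 and COL4A4, chains of the specialised basement membranes of kidney, lung and inner ear, rose by less. COL4A3 (chr2:227164624-227314792) was at 5.39, 5.09 and 6.30 CPM in control and 10.3, 9.65 and 8.56 in resistant libraries, a 1.69-fold rise (log2 0.76 ± 0.15 SE, edgeR adjusted p = 0.0136). COL4A4 (chr2:226967360-227164488) was at 6.19, 6.22 and 5.22 CPM in control and 8.80, 8.03 and 9.06 in resistant libraries, a 1.47-fold rise (log2 0.56 ± 0.14 SE, edgeR adjusted p = 0.0366). Both genes were separate between the groups with little spread inside them. With libraries left out, the COL4A3 call ended without control replicate 1 (edgeR adjusted p = 0.0786) or resistant replicate 1 (0.0869), 2 (0.0637) or 3 (0.0552), and for COL4A4 it ended without control replicate 1 (0.127) or control replicate 3 (0.0803), and without resistant replicate 1 (0.13), 2 (0.0966) or 3 (0.185). When the replicate number replaced the batch as a block, COL4A4 had an edgeR adjusted p of 0.065. In the 2021 batch alone the edgeR adjusted p was 0.0838 for COL4A3 and 0.129 for COL4A4. COL4A4 overlaps RHBDD1, which had 5893 counts against 2686 for COL4A4 and a log2 fold change of -0.22. Whether the counting used strand is not given in the sources used here. The ratio of COL4A4 to COL4A3 was 0.927, 0.987 and 0.67 in control and 0.692, 0.672 and 0.856 in resistant libraries (two-sided exact permutation p = 0.4).

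The third pair of chains, on the X chromosome, was not called. COL4A5 was the highest collagen per length in control libraries and stood at 95.6, 97.6 and 139 CPM there and at 105, 117 and 122 in resistant libraries (log2 0.05 ± 0.13 SE, edgeR adjusted p = 0.842). COL4A6 was low at 2.34, 2.29 and 2.30 CPM against 1.53, 1.98 and 1.75 (log2 -0.39 ± 0.21 SE, edgeR adjusted p = 0.276). Its groups did not overlap. The ratio of COL4A6 to COL4A5 was between 0.0160 and 0.0235 in control and between 0.0138 and 0.0163 in resistant libraries (two-sided exact permutation p = 0.2). In none of the 3 pairs were the chain ratios of the groups apart, in a design in which no ratio could reach an exact p below 0.1.

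Among FACIT collagens, 3 of 6 tested chains rose, 1 fell and 2 were not called. COL12A1 (chr6:75084326-75206053), a large chain that decorates type I fibrils, was at 36.0, 35.5 and 15.5 CPM in control and 214, 154 and 277 in resistant libraries. The lowest resistant library was above the highest control by more than the whole control range. The rise was 7.51-fold, from 29 ± 11.7 to 215 ± 61.5 CPM (log2 2.91 ± 0.41 SE, edgeR adjusted p = 0.0113). None of the 20 tested genes nearest to COL12A1 was called by edgeR, against 11.7% of all genes tested. Without control replicate 1 the edgeR adjusted p of COL12A1 was 0.103, without resistant replicate 1 it was 0.104, and in the 2021 batch alone it was 0.093. These settings all take the difference from the 2021 libraries. With a replicate block the edgeR adjusted p was 0.057. The log2 fold change of COL12A1 stayed between 2.57 and 3.24 under all alternatives run.

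COL14A1 and COL16A1, 2 further fibril-associated chains, rose from lower levels. COL14A1 (chr8:120124454-120373573) was at 3.58, 9.08 and 11.2 CPM in control and 9.05, 16.6 and 22.8 in resistant libraries, a 2.10-fold rise (log2 1.07 ± 0.17 SE, edgeR adjusted p = 0.00565). The groups overlapped, and the gene also differed by batch, with a log2 difference of 1.30 between 2021 and 2020 libraries (edgeR adjusted p = 0.00458). Within each batch the resistant libraries were higher, by 1.33 in 2020 and 0.94 in 2021 on the log2 scale. The COL14A1 call ended without resistant replicate 3 (edgeR adjusted p = 0.0556) and in a fit with no batch term (0.339). COL16A1 (chr1:31652263-31704017) was at 4.07, 4.50 and 2.71 CPM in control and 6, 10.9 and 8.79 in resistant libraries, a 2.25-fold rise (log2 1.17 ± 0.26 SE, edgeR adjusted p = 0.022). Its groups did not overlap, and its call ended without control replicate 2 (edgeR adjusted p = 0.0613) or resistant replicate 2 (0.0688) or 3 (0.0914).

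COL9A2, a chain of the type IX collagen of cartilage, fell. COL9A2 (chr1:40300489-40317286) was at 29.4, 42.1 and 35.7 CPM in control and 16.2, 22.2 and 17.4 in resistant libraries, so that every resistant library was below every control. The mean was 1.92-fold lower (35.7 ± 6.32 against 18.6 ± 3.2 CPM, log2 -0.94 ± 0.13 SE, edgeR adjusted p = 0.00321). Its partner COL9A3 was at 0.422, 0.626 and 0.752 CPM in control and 0.512, 1.83 and 1.18 in resistant libraries (log2 0.91 ± 0.32 SE, edgeR adjusted p = 0.106), and the third chain, COL9A1, had 1 count in all. The ratio of COL9A3 to COL9A2 was 0.0166, 0.0172 and 0.0244 in control and 0.0366, 0.0953 and 0.0788 in resistant libraries. Here the groups did not overlap, and the two-sided exact permutation p was 0.1, the smallest the design allows, or 0.4 after adjustment over the 4 chain ratios computed. COL9A3 overlaps TCFL5 on the chromosome, which had 11769 counts against 358 for COL9A3, and whether the counting used strand is not known. COL21A1, the remaining tested FACIT chain, had a log2 fold change of -0.61 and an edgeR adjusted p of 0.306.

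**Figure D2:**
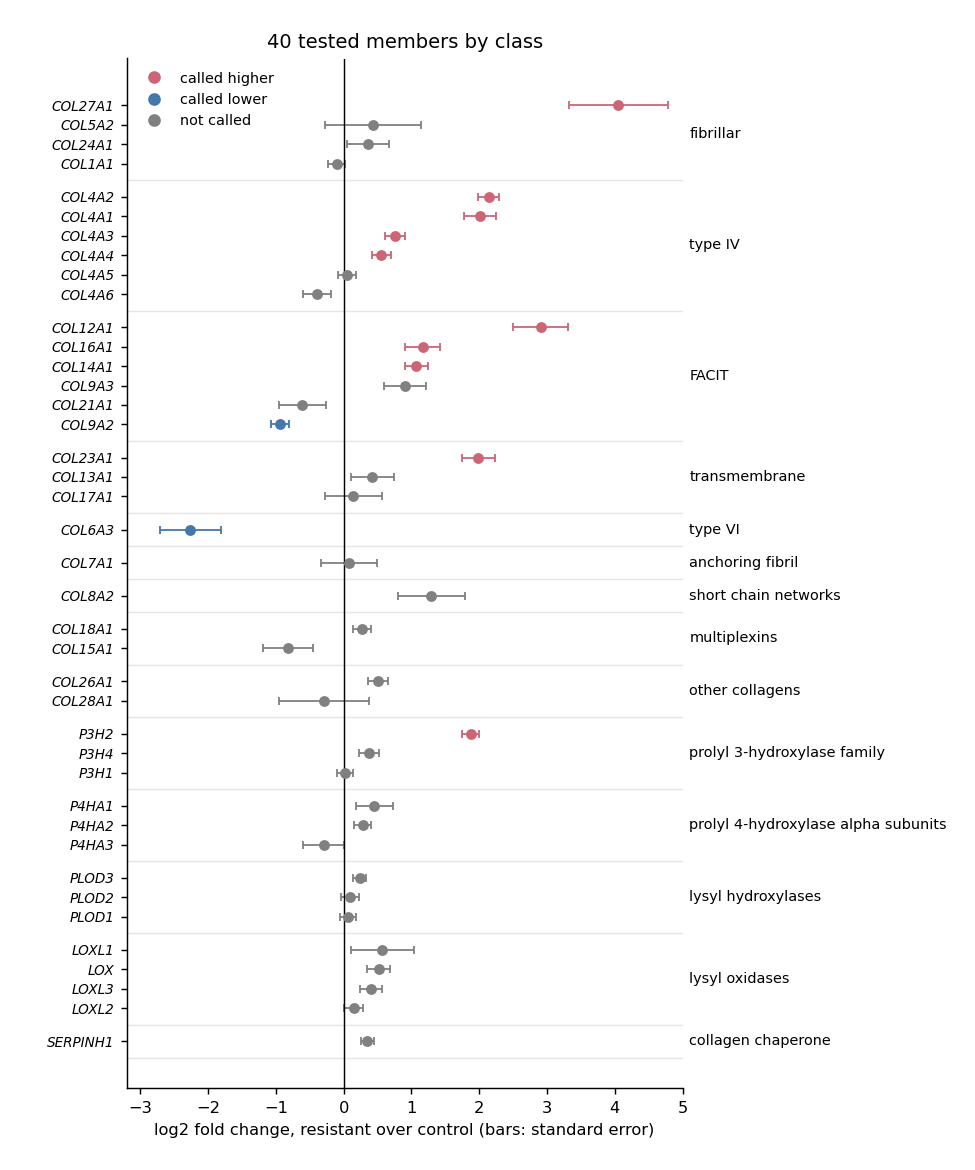
Log2 fold change of resistant over control libraries with its standard error for the 40 tested members, grouped by class. Type IV and FACIT chains hold 7 of the 10 members called higher, and among the enzymes only P3H2 is called.

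In the transmembrane class COL23A1 rose, and COL13A1 and COL17A1 were not called. COL23A1 (chr5:178237618-178590393) was at 1.32, 0.572 and 0.752 CPM in control and 3.93, 3.18 and 2.93 in resistant libraries, with no overlap. This was a 3.97-fold rise (log2 1.99 ± 0.25 SE, edgeR adjusted p = 0.00248). COL13A1 was at 2.63, 4.61 and 1.87 CPM in control and 4.23, 3.57 and 4.4 in resistant libraries (log2 0.43 ± 0.32 SE, edgeR adjusted p = 0.44). COL17A1, the hemidesmosomal collagen of epithelia, had a log2 fold change of 0.14 and an edgeR adjusted p of 0.866. Without control replicate 2 COL13A1 was called (edgeR adjusted p = 0.04).

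Of the 11 fibrillar genes, 4 were tested and 1 rose. COL27A1 (chr9:114154098-114312511) had 7, 12 and 27 counts in control and 22, 726 and 341 in resistant libraries, or 0.174, 0.214 and 0.398 CPM against 0.592, 10.9 and 3.54. The 2020 resistant library was close to the controls, and the 2021 pair carried the difference. The fitted change was 16.6-fold (log2 4.05 ± 0.73 SE, edgeR adjusted p = 0.0188), the largest among the 40 tested members, with resistant libraries at 5.01 ± 5.30 CPM. Without resistant replicate 2 its log2 fold change was 3.05, and the call ended without control replicate 2 (edgeR adjusted p = 0.0835) or 3 (0.245). COL1A1, the main chain of type I collagen and the highest fibrillar chain per length, was at 25.6, 30.3 and 23.1 CPM in control and 22.4, 26.0 and 25.5 in resistant libraries (log2 -0.10 ± 0.12 SE, edgeR adjusted p = 0.655). Its partner COL1A2 had 1 count over the control and 7 over the resistant libraries, too few for a chain ratio. COL5A2 varied inside each group, at 4.32, 15.1 and 2.86 CPM in control and 5.57, 7.20 and 17.3 in resistant libraries (edgeR adjusted p = 0.749). COL24A1 had a log2 fold change of 0.36 and an edgeR adjusted p of 0.509.

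COL6A3, 1 chain of the type VI filament, fell, while its partner chains had counts in the resistant line only. COL6A3 (chr2:237324018-237414164) had 24, 65 and 32 counts in control and 3, 13 and 17 in resistant libraries, or 0.596, 1.16 and 0.472 CPM against 0.0808, 0.195 and 0.177. The groups did not overlap, and the level was 4.81-fold lower (log2 -2.26 ± 0.45 SE, edgeR adjusted p = 0.0142). This call rests on few reads and ended without control replicate 2 (edgeR adjusted p = 0.0545) or resistant replicate 3 (0.087). COL6A2 had no count in any control library and 1, 94 and 53 in resistant libraries. Summed over the resistant group and scaled to depth, the COL6A2 counts were 40.4-fold a floor of 3 counts over the control group. COL6A1 had no control count and 0, 34 and 16 resistant counts, 13.7-fold the same floor when summed. These pooled values do not include the spread between libraries. Both genes were below the filter and were not tested. Their counts were in the 2021 resistant libraries, with 1 COL6A2 count in the 2020 library. COL6A5 and COL6A6 had 1 count each.

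The same 2021 libraries held nearly all the counts of 3 other untested members. COL5A3 had no control count and 0, 12 and 15 resistant counts, which when summed and scaled to depth were 7.38-fold the floor of 3 counts over the group. COL5A1 had 0, 0 and 1 control counts and 1, 13 and 7 resistant counts, a ratio of summed counts, scaled to depth, of 17.2 (95% interval 2.77 to 712). P3H3, a prolyl 3-hydroxylase, had 1, 0 and 0 against 1, 16 and 7, a ratio of 19.7 (95% interval 3.21 to 809). These intervals cover counting error only, and none of these pooled values includes the spread between libraries. In a fit with no filter on low counts, COL5A1, COL5A3, COL6A1, COL6A2 and P3H3 were all called higher, and COL12A1 and COL27A1 were not called (edgeR adjusted p = 0.0713 and 0.12). The remaining untested members had 10 counts or fewer in all, and 6 had none: COL10A1, COL11A1, COL11A2, COL19A1, COL22A1 and COL25A1. The 0 of COL11A2 cannot be read as a level. It lies in a stretch of chromosome 6 where 15 of its 20 nearest protein-coding genes also had no count and 19 had 10 or fewer, among them RPS18, a ribosomal protein gene that every cell uses, with 6 counts over all libraries.

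**Figure D3:**
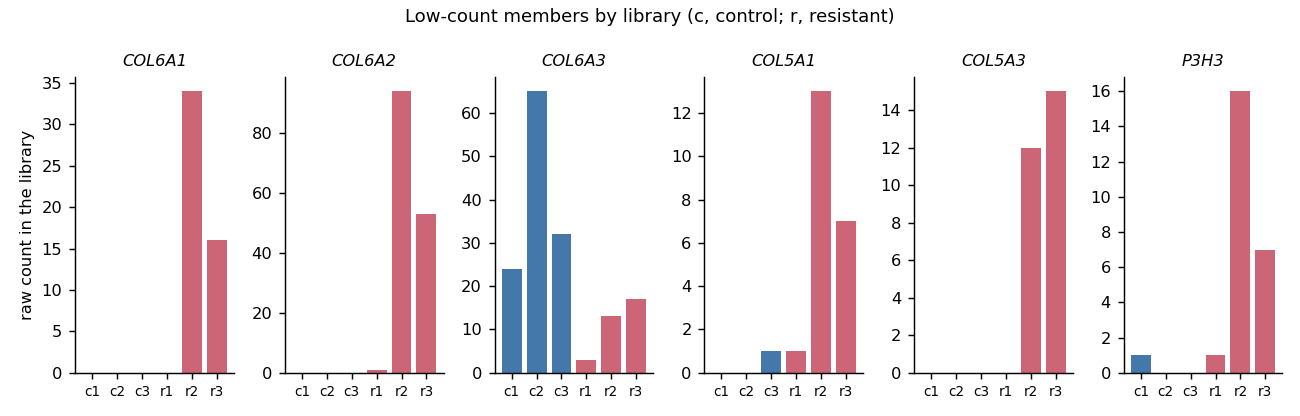
Raw counts by library of members with few reads, controls c1 to c3 and resistant r1 to r3. COL6A2, COL6A1 and COL5A3 are at 0 in all 3 controls, with their counts in r2 and r3, while COL6A3 is highest in c2, at 65.

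The other collagen classes held no call in edgeR's main test. COL18A1, the multiplexin from which endostatin is cut, was at 51.8, 81.5 and 59.8 CPM in control and 65.5, 77.0 and 89.4 in resistant libraries (log2 0.27 ± 0.13 SE, edgeR adjusted p = 0.228). COL7A1, which forms anchoring fibrils under epithelia, was at 11.9, 3.02 and 7.42 against 7.81, 8.87 and 5.11 CPM (edgeR adjusted p = 0.931). COL26A1 was at 6.86, 9.79 and 8.05 against 10.3, 10.7 and 13.9 CPM, without overlap (log2 0.50 ± 0.15 SE, edgeR adjusted p = 0.064), and DESeq2 called it (adjusted p = 0.032). COL8A2 was at 0.224, 0.304 and 0.251 against 0.539, 1.08 and 0.322 CPM, also without overlap (log2 1.30 ± 0.49 SE, edgeR adjusted p = 0.132). Without resistant replicate 2 the log2 fold change of COL8A2 was 0.60, and with no filter on low counts COL8A2 was called (edgeR adjusted p = 0.0495). COL15A1 and COL28A1 had log2 fold changes of -0.82 and -0.29 (edgeR adjusted p = 0.195 and 0.825). Of these 6 genes, 2 had an unadjusted p under 0.05, and limma voom called none. Without control replicate 2, COL18A1 and COL26A1 were called (edgeR adjusted p = 0.039 and 0.0491).

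Among the 16 genes for enzymes and chaperone, 14 were tested and only P3H2 was called. P3H2 (chr3:189956728-190122278), the prolyl 3-hydroxylase known for acting on type IV collagen, was at 8.10, 8.67 and 10.1 CPM in control and 31.3, 35.9 and 31.1 in resistant libraries. The rise was 3.66-fold, from 8.96 ± 1.03 to 32.8 ± 2.73 CPM (log2 1.87 ± 0.12 SE, edgeR adjusted p = 0.000654), and its size was close in both batches, at 1.95 in 2020 and 1.83 in 2021 on the log2 scale. Of the 20 tested genes nearest to P3H2, 4 were called higher, against 6.23% of all genes tested. TP63 was the highest of them, at a log2 fold change of 1.95. Near COL4A3 and near COL4A4, 3 of 19 genes were called higher, and near COL6A3, 3 of 20. P3H1 and P3H4, of the same family as P3H2, had log2 fold changes of 0.03 and 0.37 (edgeR adjusted p = 0.913 and 0.155). Levels of P3H1 were 28.2, 45.1 and 35 CPM in control and 28.6, 38.9 and 42.9 in resistant libraries.

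The other 13 tested genes of this set, SERPINH1 included, had no call in edgeR's quasi-likelihood test, with 5 at an unadjusted p under 0.05, 1 called by DESeq2 and 0 by limma voom. SERPINH1, the collagen chaperone, had the lowest adjusted p of them: it was at 69.0, 102 and 87.5 CPM in control and 85.0, 118 and 127 in resistant libraries (log2 0.35 ± 0.10 SE, edgeR adjusted p = 0.0571, DESeq2 adjusted p = 0.0177). Within the groups both 2020 libraries were lowest. Without control replicate 2 SERPINH1 was called (edgeR adjusted p = 0.0312). Of the prolyl 4-hydroxylase alpha subunits, which pair with P4HB, P4HA1 was at 46.0, 23.9 and 39.8 against 55.8, 59.5 and 33.2 CPM (log2 0.45 ± 0.27 SE, edgeR adjusted p = 0.353), and P4HA2 and P4HA3 had log2 fold changes of 0.28 and -0.30. The lysyl hydroxylases PLOD2 and PLOD1 were the most abundant members per kilobase of the longest annotated transcript. Per kilobase of coding sequence, as mean CPM over all libraries, SERPINH1 (78.3) lay between PLOD2 (84.0) and PLOD1 (51.2). PLOD2, which modifies the chain ends used for cross-links, was at 234, 143 and 180 CPM in control and 234, 194 and 162 in resistant libraries (log2 0.09 ± 0.13 SE, edgeR adjusted p = 0.687). PLOD1 and PLOD3 had log2 fold changes of 0.06 and 0.24. LOX, the founding lysyl oxidase, was at 4.82, 5.97 and 4.91 against 7.35, 8.75 and 6.41 CPM, without overlap (log2 0.52 ± 0.17 SE, edgeR adjusted p = 0.0906). LOXL2, the highest lysyl oxidase per length, was at 36.8, 40.3 and 35 against 44.2, 47.1 and 33.4 CPM (edgeR adjusted p = 0.538), and LOXL1 and LOXL3 were not called (edgeR adjusted p = 0.482 and 0.154). LOXL4 had 2 counts in all. On the chromosome LOX overlaps SRFBP1 (7312 counts against 2334 for LOX), and LOXL3 overlaps HTRA2 (11643 against 1687). P4HA3 overlaps PPME1 (32100 against 495).

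The order of the collagens by level changed with these differences. As mean CPM per kilobase of the longest annotated transcript, COL4A5 led the controls at 17.1, followed by COL9A2 at 12.4, COL18A1 at 9.78 and COL4A2 at 5.99, with COL4A1 at rank 5 (4.22) and COL12A1 at rank 8 (2.47). In resistant libraries COL4A2 led at 27.5, ahead of COL12A1 at 18.3, COL4A1 at 17.8 and COL4A5 at 17.6, with COL9A2 at rank 6 (6.43). Neighbours in these orders can lie within each other's spread, as the last 3 of the leading resistant chains did. Such orders also depend on the length used, and how evenly the exome probes captured different genes was not tested. PLOD2 was above every collagen in both lines, at 48.4 and 51.2 CPM per kilobase. All 44 collagens together took 0.0341% to 0.0416% of the counts of a control library and 0.0653% to 0.103% of a resistant one. Summed, they were at 393 ± 44.6 CPM in control and 841 ± 170 in resistant libraries, without overlap. Leaving out COL12A1, COL4A1 and COL4A2, which themselves rose, the sums were 297 ± 32.2 and 329 ± 40.4 CPM, with overlap. Of the 23 tested collagens that remained, 6 were called higher and 2 lower, against 6.23% and 5.48% of all genes. Their median log2 fold change was 0.36, with 16 above 0 and 7 below. The summed enzymes and chaperone were at 584 ± 5.06 and 683 ± 60.1 CPM, without overlap. Of the 14 tested, 13 had a log2 fold change above 0, with a median of 0.31. Over all 13950 genes tested, 6886 lay above 0.

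Within the collagen counts, COL12A1 made up 10.3%, 8.08% and 3.99% in control and 32.1%, 18.0% and 27.5% in resistant libraries. COL4A2 made up 8.64%, 11.2% and 9.56% against 15.4%, 25.1% and 21.9%. The share of COL4A5, whose level was not called different, was 27.3%, 22.2% and 35.6% in control and 15.7%, 13.7% and 12.1% in resistant libraries. These shares are not scaled for length and sum to the whole in each library, so a gene's share moves when others change.

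**Figure D4:**
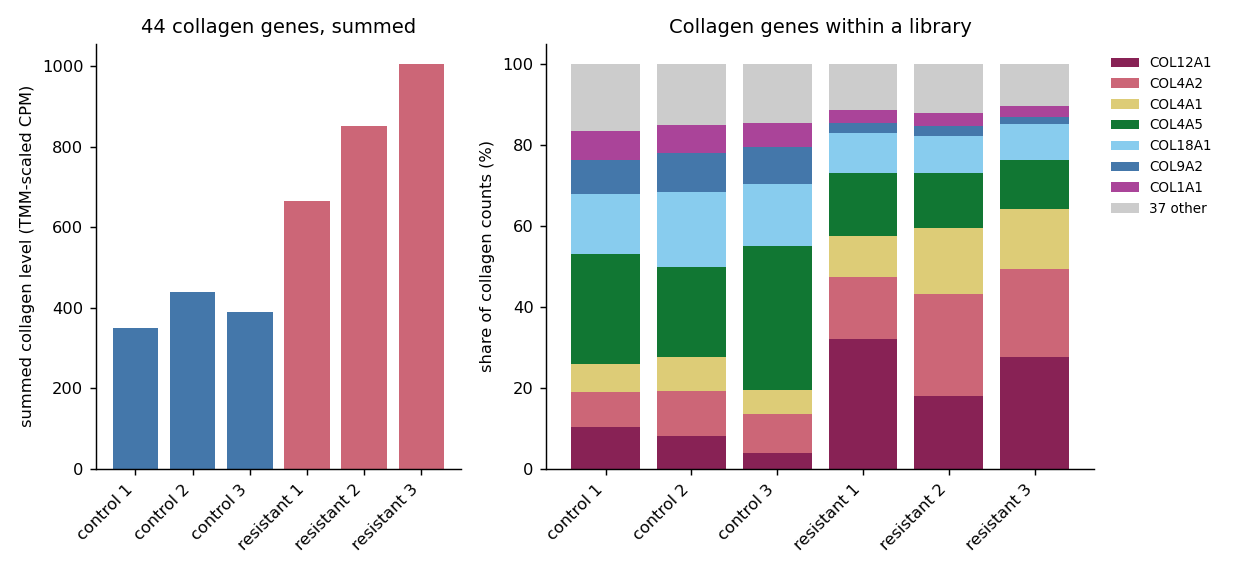
Summed level of the 44 collagen genes in TMM-scaled CPM (left) and the share of collagen counts taken by 7 named genes (right, percent) in each library. The sums are 351 to 440 CPM in control and 666 to 1004 in resistant libraries, and COL12A1, COL4A1 and COL4A2 take a larger share in every resistant library than in any control.

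The 12 called members moved the same way in both batches. They were called in a fit over these same libraries, which favours such agreement, so it is not a separate test. All 10 called higher were higher in the 2020 pair of libraries and in the 2021 means, and both called lower were lower in each. The difference was larger in 2021 for 8 of the 12 and larger in 2020 for 4. For COL4A1 it was 1.46 in 2020 and 2.31 in 2021 on the log2 scale, for COL4A2 1.75 and 2.34, for COL12A1 2.57 and 3.13, for COL16A1 0.56 and 1.47, and for COL27A1 1.60 and 4.26. COL6A3 and COL9A2 had differences of -2.47 and -1.83, and of -0.86 and -0.98. The test of the difference between batches, a group by batch interaction, called 0 of 13950 genes (0%) in edgeR, with 187 at an unadjusted p under 0.05 and no member among them. COL4A1 had the lowest interaction p of any member, 0.0726 unadjusted. With 1 library per group in 2020, the 2020 value of each gene has no replicate. Over the 40 tested members, 28 were higher in both batches and 5 had opposite signs, with medians of 0.27 in 2020 and 0.46 in 2021. Over all 13950 genes, 4864 were higher in both batches and the medians were -0.00 and 0.00. The batch itself was called for 22.9% of all genes and for 6 of 40 members, namely COL4A2, COL14A1, PLOD1, PLOD2, P3H1 and SERPINH1.

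**Figure D5:**
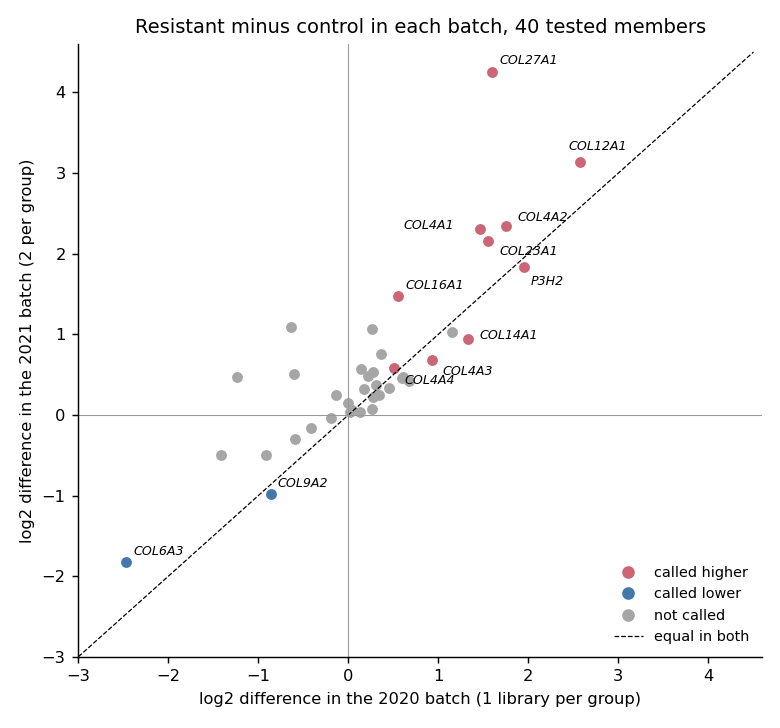
Log2 difference of resistant minus control in the 2021 batch (2 libraries per group) against that in the 2020 batch (1 per group) for the 40 tested members, with a dashed line where both are equal. All 12 called members lie in the quadrants of equal sign, with COL27A1 at 1.60 and 4.26 farthest from the line.

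Of 43 further genes on which collagens depend, grouped in 4 lists, 32 were tested, and edgeR called 10 higher (background 6.23%) and none lower (5.48%), with a median log2 fold change of 0.19. DESeq2 also called 1 lower, FAP. The machinery for folding and secretion was not called: 0 of 13 tested genes passed in edgeR, 0 had an unadjusted p under 0.05, and neither DESeq2 nor limma voom called any. P4HB, the partner of the prolyl 4-hydroxylases, was at 404 ± 78.0 CPM in control and 348 ± 18.6 in resistant libraries (edgeR adjusted p = 0.351). Of 6 tested genes of propeptide processing, 3 rose. PCOLCE2, an enhancer of procollagen C-proteinase, was at 0.547, 0.447 and 0.472 CPM in control and 1.59, 2.22 and 1.36 in resistant libraries, a 3.54-fold rise (edgeR adjusted p = 0.00625). PCOLCE, the related enhancer, rose 2.18-fold from 2.63 ± 0.539 to 5.87 ± 2.28 CPM (edgeR adjusted p = 0.022), and ADAMTS14, a procollagen N-proteinase, 2.66-fold from 0.333 ± 0.17 to 0.831 ± 0.11 CPM (0.0322). No group overlapped in these 3 genes. The call of PCOLCE ended without control replicate 2 (edgeR adjusted p = 0.0596) or resistant replicate 2 (0.087) or 3 (0.0676), and that of ADAMTS14 without control replicate 2 (0.0697) or 3 (0.0668), without resistant replicate 2 (0.111) or 3 (0.115), and with the replicate block (0.0506).

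Among collagen receptors, 4 of 8 tested genes rose. ITGA2, which with ITGB1 forms the integrin alpha 2 beta 1 receptor, was at 48.5, 42.8 and 38.3 CPM in control and 86.8, 75.8 and 78.0 in resistant libraries, a 1.86-fold rise (edgeR adjusted p = 0.0014). ITGA1, the alpha chain of a receptor that binds type IV collagen, was at 0.174, 0.107 and 0.265 against 0.862, 3.45 and 1.58 CPM, a 10.2-fold rise (edgeR adjusted p = 0.0047). Both had no overlap between groups. MRC2, an endocytic collagen receptor, rose 3.00-fold from 4.04 ± 2.00 to 11.8 ± 3.93 CPM (edgeR adjusted p = 0.00224). ITGB1 rose 1.40-fold from 303 ± 72.3 to 417 ± 47.7 CPM (edgeR adjusted p = 0.0348) with overlapping groups, and its call ended with the replicate block (0.057) and without any 1 library (0.0631 to 0.141).

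Among collagen-degrading enzymes, 3 of 5 tested genes rose, all matrix metalloproteinases. MMP14, the membrane-type collagenase, was at 32.1, 31.7 and 33.7 CPM in control and 41.6, 56.5 and 48.5 in resistant libraries, a 1.5-fold rise (edgeR adjusted p = 0.0124). MMP2, the gelatinase that MMP14 activates, rose 1.74-fold from 10.7 ± 2.90 to 18.5 ± 1.16 CPM (edgeR adjusted p = 0.0205), and MMP13, a collagenase, 5.69-fold from 0.189 ± 0.112 to 1.03 ± 0.423 CPM (0.0192). None of the 3 had overlapping groups. FAP, a protease that cleaves collagen fragments and also a fibroblast marker, was at 4.42 ± 1.23 against 2.65 ± 0.139 CPM (log2 -0.70, edgeR adjusted p = 0.051, DESeq2 adjusted p = 0.0152). The MMP14 call ended without resistant replicate 2 (edgeR adjusted p = 0.0645) or 3 (0.0569), the MMP2 call without control replicate 1 (0.0896) or resistant replicate 1 (0.0921) or 3 (0.111), and the MMP13 call without control replicate 2 (0.0735) or resistant replicate 2 (0.0506) or 3 (0.086). Without control replicate 1 or resistant replicate 1 the log2 fold change of MMP13 was 3.22 and 3.23, against 2.51 with all libraries. Both of these fits take the group difference from the 2021 libraries.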

How the data were processed

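RNA of 6 libraries was measured, 3 of each line. Cultures in DMEM with 10% serum gave 100 ng of RNA per library, captured with exome probes, per the labels' protocols. The submitters' processing notes name Trimmomatic 0.38, STAR 2.7.8a, featureCounts and the GRCh38 build. The authors deposited whole-number read counts per Entrez gene identifier. Of 28395 identifiers, 27745 were named through RefSeq of GRCh38.p14, and the others took between 0.0327% and 0.0553% of each library's counts. Control and resistant groups follow the labels, and so does the batch year. No 2 libraries of a group held the same counts, with a chi-square per degree of freedom of 73.5 or more.

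Counts were scaled by TMM, filtered with edgeR's filterByExpr and tested with edgeR 4.0.16 (R 4.3.3) by robust quasi-likelihood with batch and group terms, leaving 3 residual degrees of freedom. Levels per length use the longest GENCODE transcript. Alternatives were other scalings, filters and designs, DESeq2 1.42.0, limma 3.58.1 voom and each library left out. The samples with the same replicate number deviated together over all genes (correlations 0.729, 0.143 and 0.155), which pairs them by number. Within the 2021 batch the crossed correlations were higher, at 0.57 and 0.477, so these values do not pair the 2021 libraries by number. Genes with values in every library were those called, the most abundant of each class per length and the chains of a ratio. Others are named with their values, LOX and COL26A1 among them after their values were seen. The members, the lists of further genes and the markers were chosen with earlier results of these data known. COL11A2 and the collagen receptor DDR1 lie in a stretch of chromosome 6 with few counts for any gene. Of the 60 members, 45 had a RefSeq promoter window.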

Additional observations from a re-analysis of the deposited data

How the results depend on the processing

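Of 16 alternative fits, COL4A1, COL4A2, COL23A1, COL9A2 and P3H2 kept their direction and call in every one. Over 587 fits of single genes (27 members and 10 pathway genes), 501 kept the direction and side of the threshold, 64 lost a call, 12 gained one and 10 changed sign. The sign changes were in 6 genes that were not called, with edgeR adjusted p values from 0.516 to 0.987. With each library left out, their log2 fold changes ranged from -0.226 to 0.0042 for COL1A1 (above 0 without control replicate 2), from -0.074 to 0.214 for COL4A5 (below 0 without control replicate 2), from -0.052 to 1.36 for COL5A2 (below 0 without control or resistant replicate 3), from -0.313 to 0.409 for COL7A1 (below 0 without control or resistant replicate 2), from -0.080 to 0.136 for P3H1 (below 0 without control or resistant replicate 3) and from -0.014 to 0.172 for PLOD2 (below 0 without control replicate 2). Without a batch term COL7A1 was at -0.033. Without a batch term, edgeR called 197 genes higher and 165 lower, against 869 and 764 with it, and 5 members higher and 1 lower, against 10 and 2. It lost COL14A1, COL16A1, COL27A1, COL4A3, COL4A4 and COL6A3, and the pathway genes ADAMTS14, PCOLCE, ITGB1, MRC2, MMP2, MMP13 and MMP14. In the 2021 batch alone, 564 genes were called higher and 448 lower, and COL5A3, COL6A1 and COL6A2 were tested and called higher, as they were without control replicate 1 or resistant replicate 1. With no filter on low counts 17 members were called higher, and with a minimum mean of 1 CPM only 1 member was called lower, since COL6A3 was then not tested. Leaving out a library gave 338 (without resistant replicate 3) to 986 genes called higher and 279 (without resistant replicate 3) to 999 lower, and 6 (without resistant replicate 3) to 14 members higher and 1 (without control replicate 2 or resistant replicate 3) to 3 lower. Genes called higher and lower also moved by over 1.5 times without control replicate 1 (575 and 489), resistant replicate 1 (556 and 445) or resistant replicate 2 (446 and 405). Without control replicate 2 PLOD3 and COL6A2 were among those called higher, and without control replicate 3 COL15A1 was called lower and COL6A1 and COL6A2 higher. Leaving out a 2021 library leaves 1 of its group in that batch, and such fits assume that it varies like the others. With the replicate block in place of the batch, 1303 genes were called, with 8 members higher and 2 lower. The block ended the calls of COL12A1, COL4A4, ADAMTS14 and ITGB1 and of no other named gene. A fit without the robust option, chosen after seeing the data, changed no member's call. Upper quartile scaling and DESeq2 also called COL26A1 and SERPINH1 higher. The cause of these changes was not tested. Depth limits the 20 untested members: 3 counts are 0.032 to 0.0792 CPM, depending on the library.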

Other observations

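Promoter windows of 33 tested members were in the RefSeq table (GRCh38.p14), and only the 250 bases before the start were used. GGGCGG was found on either strand in 18 of the 33 and in 7 of the 9 windows of members called higher, against 42.3% of all 27305 windows. CCAAT was found in 10 and 3 of them, against 33.0%, and CCCTNCCCC in 8 and 2, against 9.98%. TATAAA was found in 4 of the 33 and in none of the 9, against 11.1% of all windows. TGANTCA and CACGTG were found in none of the 33, against 6.60% and 6.49%. The median G and C content was 66.4% for tested members, 65.8% for 12 untested members and 58.0% for all windows. For the 9 windows of members called higher it was 72.8%, and the motif shares were not adjusted for this content. These are descriptions of letters, with no test, and members called higher include gene pairs that share a region.

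CREB3L1, a transcription factor of the endoplasmic reticulum known for driving collagen genes in bone, was below the filter with 27, 12 and 10 counts in control and 1, 0 and 5 in resistant libraries.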
